A study of Mus musculus with 18 samples.

Results

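Hemoglobin and red cell transcripts in epididymal white adipose tissue (eWAT), the visceral fat pad that lies along the epididymis in male mice, were followed through 2 RNA-seq experiments as a measure of the blood left in the tissue. They are 6 genes chosen by symbol: the alpha globin genes Hba-a1 and Hba-a2, the beta globin genes Hbb-bs and Hbb-bt, Alas2 and Slc4a1. All 6 were in the table of the Parkin knockout experiment (6 of 21756 genes) and in that of the Nqo1 experiment (6 of 27356 genes), and all 6 passed the filter on low values that left 19012 genes in the first. The genes were chosen with earlier results of these data known, so their difference between genotypes is given as a description, without a test.

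ParkinAdi mice carried floxed Parkin alleles that were deleted by Cre under the adiponectin promoter, and mice labelled Control f/f, for floxed alleles, were the comparison (5 libraries per genotype). Both genotypes were males on a C57BL/6J background, about 4 to 6 months old, and both received a high-fat diet (HFD, 45% fat). In the second experiment wild-type C57BL/6J males were used at 2 months of age with 4 weeks of HFD. AAV8-Nqo1, in which the hAdp promoter drives mouse Nqo1, was injected into the left fat pad and a control virus, AAV8-Control, into the other pad, and tissue was taken 4 weeks later (4 pads per vector). The sources used here describe no perfusion or other removal of blood, and which pads came from the same mouse was not used. The p-values below measure only the spread between the deposited samples. In bulk tissue, fewer cells of a type and less RNA per cell cannot be told apart.

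Mature mammalian red cells have no nucleus, and the RNA they hold was made by their precursors in the bone marrow. In circulating blood that remainder is strongest in reticulocytes, the youngest red cells, and it is made up mostly of alpha and beta globin mRNA. Hemoglobin is a tetramer of a pair of alpha chains and a pair of beta chains, each with a heme group, and fat pads are fed by a dense capillary bed, so a dissected pad carries blood with it.

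The 10 libraries of the Parkin experiment are called P1 to P5 (ParkinAdi) and C1 to C5 (Control f/f), in the order of the deposited columns. They fell into sets that crossed the genotypes. In P3, P4, C4 and C5 the shorter transcripts were higher than in the average library (Spearman rho of deviation against exon length across genes, -0.54 to -0.47), and in P1, P2, P5, C1, C2 and C3 the longer transcripts were higher (0.38 to 0.51). Adipocyte markers were high in every library: Adipoq, the hormone adiponectin, lay between 15.91 and 17.99 and Fabp4, a fatty acid carrier, between 18.07 and 19.91 on the regularized log (rlog) scale, a log2 scale of normalized counts that draws in the differences of low genes. Ces5a, an esterase of the epididymis, was at 20.05 in P2 and at 5.59 to 8.45 in the other 9. Some further epididymal genes set P5 apart as well. Cst8 was at 9.89 in P5 and 3.65 in P2, against 2.43 to 3.76 in the other 8 libraries. Defb20 was at 9.46 in P5 and 5.71 in P2, against 2.89 to 4.36. Adam7 was at 16.25 in P2 and 10.15 in P5, against 6.51 to 8.20. Others did not set P5 apart: Crisp1 was at 13.60 in P2 but 8.21 in P5, inside the 7.17 to 9.86 of the other 8. Ces5a was at 5.64 in P5, against 20.05 in P2. Both libraries are ParkinAdi and both have longer transcripts higher, and values without them are given beside the comparison of genotypes.

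The globin genes are near copies in pairs, which bears on every value given for one of them. Hba-a1 (11:32283511-32284465, plus strand, GRCm38) and Hba-a2 (11:32296489-32297298, plus strand) lie in 1 cluster, and Hbb-bs (7:103826534-103828096, minus strand) and Hbb-bt (7:103812524-103813996, minus strand) in another. The coding sequences of Hba-a1 and Hba-a2 are 429 bases each and differ by 1 base, C381T (Hba-a1 base first, counted from the A of the start codon), and both encode the same 142 residues. Those of Hbb-bs and Hbb-bt are 444 bases each, differ by C417T (Hbb-bs base first) and encode the same 147 residues. Of all 50-base windows of the transcripts, 67.5% in Hba-a1 and 86.9% in Hba-a2 occur unchanged in the partner, and 65.8% in Hbb-bs and 58.3% in Hbb-bt. No 50-base window is shared between Hba-a1 and Hbb-bs. The sources used here do not say how reads that fit both copies were counted, so the split within a pair is uncertain, and so is its sum if such reads were left out.

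The start regions show how far the copies go. The RefSeq promoters (GRCm38.p6, 250 bases before the start, read on the gene's own strand) are printed to compare an alpha gene, both beta genes and Alas2, with matches to 4 short motifs, or to their reverse complements, in capitals. That of Hba-a1 is chr11:32283422-32283671 (plus strand), that of Hbb-bs chr7:103827929-103828178 (minus strand), that of Hbb-bt chr7:103813924-103814173 (minus strand) and that of Alas2 chrX:150547167-150547416 (plus strand).
Hba-a1: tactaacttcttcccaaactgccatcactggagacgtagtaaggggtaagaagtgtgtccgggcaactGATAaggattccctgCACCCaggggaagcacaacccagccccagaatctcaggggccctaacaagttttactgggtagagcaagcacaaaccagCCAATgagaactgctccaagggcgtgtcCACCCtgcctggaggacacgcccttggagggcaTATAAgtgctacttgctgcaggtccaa
Hbb-bs: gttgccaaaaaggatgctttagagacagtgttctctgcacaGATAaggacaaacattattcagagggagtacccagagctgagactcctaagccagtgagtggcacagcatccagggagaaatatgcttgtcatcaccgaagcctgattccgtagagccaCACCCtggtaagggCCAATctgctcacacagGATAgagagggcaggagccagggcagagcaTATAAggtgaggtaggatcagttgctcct
Hbb-bt: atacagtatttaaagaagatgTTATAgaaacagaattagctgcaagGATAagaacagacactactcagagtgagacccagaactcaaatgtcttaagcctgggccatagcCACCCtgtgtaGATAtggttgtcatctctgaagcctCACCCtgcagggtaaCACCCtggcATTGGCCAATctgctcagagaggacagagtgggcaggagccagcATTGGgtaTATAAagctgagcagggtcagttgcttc
Alas2: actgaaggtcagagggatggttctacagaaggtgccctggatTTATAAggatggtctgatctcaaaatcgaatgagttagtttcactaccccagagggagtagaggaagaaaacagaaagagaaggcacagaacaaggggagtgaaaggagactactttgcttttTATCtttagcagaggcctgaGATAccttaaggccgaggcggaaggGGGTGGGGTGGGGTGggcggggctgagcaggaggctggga

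The motif GATA is the core of the site of GATA1, the main transcription factor of red cell precursors. The motif CACCC is that of the site of the erythroid factor KLF1. The box CCAAT and the core element TATAA occur in promoters of many kinds. In the 300 bases from 250 before to 50 after the start, all 4 globin promoters held all 4 motifs, and so did 3.16% of the 32851 promoters of the table. Alas2 held all but CCAAT. Singly the motifs are common: on either strand, GATA was in 57.9% of all promoters, CACCC in 57.5%, CCAAT in 37.4% and TATAA in 24.9%. Counted from the start, the nearest TATAA began at position -27 in Hba-a1, -29 in Hbb-bs and -28 in Hbb-bt, and a CCAAT on the same strand at -88, -76 and -75. The windows of Hba-a1 and Hba-a2 are identical over 297 bases with an offset of 3 bases, so Hba-a2 is not printed, whereas those of Hbb-bs and Hbb-bt align with 72.4% identity. Slc4a1 had no entry. A match is a description of the letters, not of a bound site.

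Blood transcripts were among the most abundant RNAs of the fat pads. Per kb of exon, on a log2 scale of the mean rlog value, Hbb-bt stood at 15.13, Hba-a2 at 14.96, Hbb-bs at 14.86 and Hba-a1 at 13.67, which placed them 35th, 40th, 43rd and 96th of the 19012 genes. Alas2, the erythroid form of the first enzyme of heme synthesis, ranked 4782nd, and Slc4a1, the anion exchanger band 3 of the red cell membrane, ranked 18426th at 1.88. The globin mRNAs were thus among the most abundant of the pads, while Slc4a1 was near the low end of what was tested.

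Hba-a1 rlog values were 13.47, 12.52, 14.09, 13.87 and 12.90 in ParkinAdi libraries P1 to P5, against 12.59, 13.18, 13.48, 13.81 and 13.79 in Control f/f libraries C1 to C5. P2 and C1 were the lowest and P3 and C4 the highest of their genotypes, and the groups overlapped. The means were 13.37 ± 0.66 in ParkinAdi and 13.37 ± 0.50 in Control f/f (SD, n = 5 each), a difference of 0.00 (SE 0.37). Hba-a2 was again lowest in P2 and C1, with 14.49, 13.54, 14.83, 14.87 and 13.93 in ParkinAdi and 13.67, 14.24, 14.52, 14.82 and 14.81 in Control f/f. Its means were 14.33 ± 0.58 in ParkinAdi and 14.41 ± 0.48 in Control f/f (SD, n = 5 each), a difference of -0.08 (SE 0.34).

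The beta globin Hbb-bs had 14.56, 13.34, 15.27, 15.38 and 13.90 in ParkinAdi libraries and 13.56, 14.29, 14.42, 15.18 and 14.93 in Control f/f libraries. P3 and P4 lay above every control and P2 below every control, so ParkinAdi spanned the wider range on both sides. The means were 14.49 ± 0.88 in ParkinAdi and 14.48 ± 0.63 in Control f/f (SD, n = 5 each), a difference of 0.01 (SE 0.48). Hbb-bt had 14.70, 13.46, 15.45, 15.52 and 14.07 in ParkinAdi and 13.71, 14.44, 14.52, 15.30 and 15.08 in Control f/f. With means of 14.64 ± 0.89 in ParkinAdi and 14.61 ± 0.62 in Control f/f (SD, n = 5 each), it differed by 0.03 (SE 0.48).

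Alas2, whose product makes the heme that fills the globins, had 9.47, 8.94, 9.49, 9.40 and 8.90 in ParkinAdi libraries, against 8.73, 9.25, 9.36, 9.58 and 9.57 in Control f/f libraries. Every ParkinAdi value lay inside the range of the controls. Its means were 9.24 ± 0.29 in ParkinAdi and 9.30 ± 0.35 in Control f/f (SD, n = 5 each), a difference of -0.06 (SE 0.20). The gene (X:150547375-150570638, plus strand) overlaps Apex2 on the other strand, and the sources used here do not say whether reads were counted by strand.

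Slc4a1 (11:102348824-102366203, minus strand) was apart from the others. It had 4.97, 3.72, 3.51, 3.55 and 3.68 in ParkinAdi libraries, against 4.03, 4.55, 4.71, 4.31 and 4.65 in Control f/f libraries. P1 was above all controls and the other 4 ParkinAdi libraries were below all of them, an arrangement with 4 of 5 libraries below all controls that 2.28% of the genes tested showed. The means were 3.89 ± 0.61 in ParkinAdi and 4.45 ± 0.28 in Control f/f (SD, n = 5 each), a difference of -0.56 (SE 0.30).

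**Figure D1:**
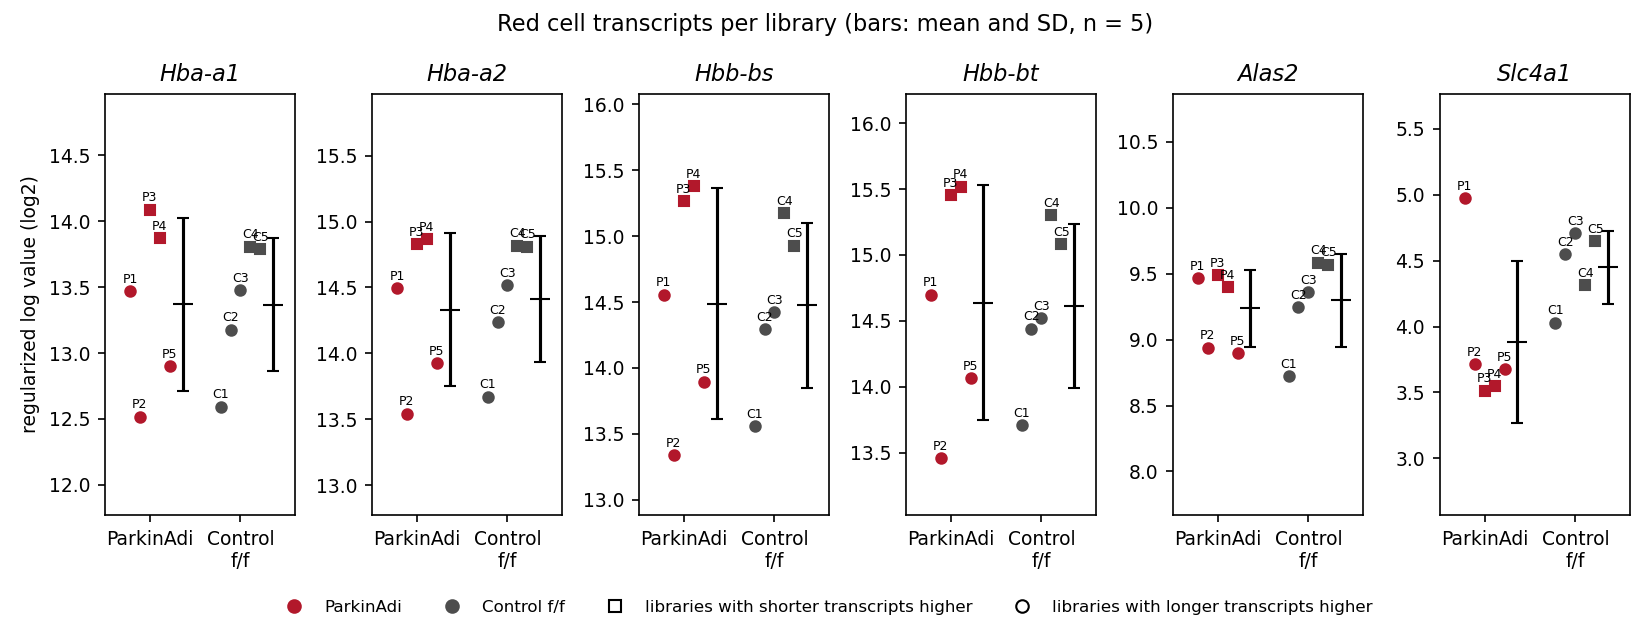
Regularized log values (log2, each panel spanning the same range) of the 6 genes in ParkinAdi libraries P1 to P5 (left, red) and Control f/f libraries C1 to C5 (right, grey), with squares for libraries in which shorter transcripts were higher, circles for the other libraries, and bars for mean and SD (n = 5). The genotypes overlap for every gene, and for the 4 globins all squares lie above all circles.

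The genotypes thus overlapped for 6 of 6 genes, where 1.06% of all genes tested showed no overlap. In the limma fit across all genes, 0 of 19012 genes passed an adjusted p of 0.05 in either direction (percent called 0, smallest adjusted p = 0.62), and 278 genes (1.46%) were higher and 677 (3.56%) lower in ParkinAdi at an unadjusted p under 0.05. Without P2 the differences were 0.21 for Hba-a1, 0.12 for Hba-a2, 0.30 for Hbb-bs, 0.32 for Hbb-bt, 0.01 for Alas2 and -0.52 for Slc4a1. These differences are descriptions, given without an SE. Without both P2 and P5, an alternative chosen after seeing the data, they were 0.44 for Hba-a1, 0.32 for Hba-a2, 0.59 for Hbb-bs, 0.61 for Hbb-bt, 0.15 for Alas2 and -0.44 for Slc4a1. Of the 3 ParkinAdi libraries then left, P3 and P4 are among those with shorter transcripts higher. Within the 6 libraries with longer transcripts higher, Hbb-bs differed by -0.16 and Hba-a1 by -0.12, and within the other 4 by 0.27 and 0.18. Slc4a1 differed by -0.31 and -0.95 within the same sets.

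For the globins the library sets lay apart. Hbb-bt averaged 15.34 ± 0.19 in the 4 libraries with shorter transcripts higher and 14.15 ± 0.49 in the 6 others (SD), a difference of 1.19. Hbb-bs differed by 1.18, Hba-a1 by 0.87 and Hba-a2 by 0.77, and for these 4 genes the sets did not overlap. In all, 4 of 6 members were higher without overlap, against 23.7% of the genes tested, and 22.7% were lower without overlap. Alas2 differed by 0.40 and Slc4a1 by -0.27, with overlapping sets.

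Short genes in general differed in this direction. The annotated exons span 667 to 812 bases in the globins, 2403 in Alas2 and 4891 in Slc4a1. Across the 2889 tested genes with exons under 1 kb the median difference between sets was 0.70 (quartiles 0.27 to 1.07), against -0.05 over all genes. Hba-a1 and Hba-a2 thus lay within the quartiles of other short genes, and Hbb-bs and Hbb-bt lay above the upper quartile, at the 96.4th and 96.5th percentile of all genes. With each library's trend against length removed, the difference became 0.63 for Hbb-bs, 0.62 for Hbb-bt, 0.29 for Hba-a1 and 0.15 for Hba-a2, and the sets still did not overlap for the beta globins but did for the alpha globins.

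**Figure D2:**
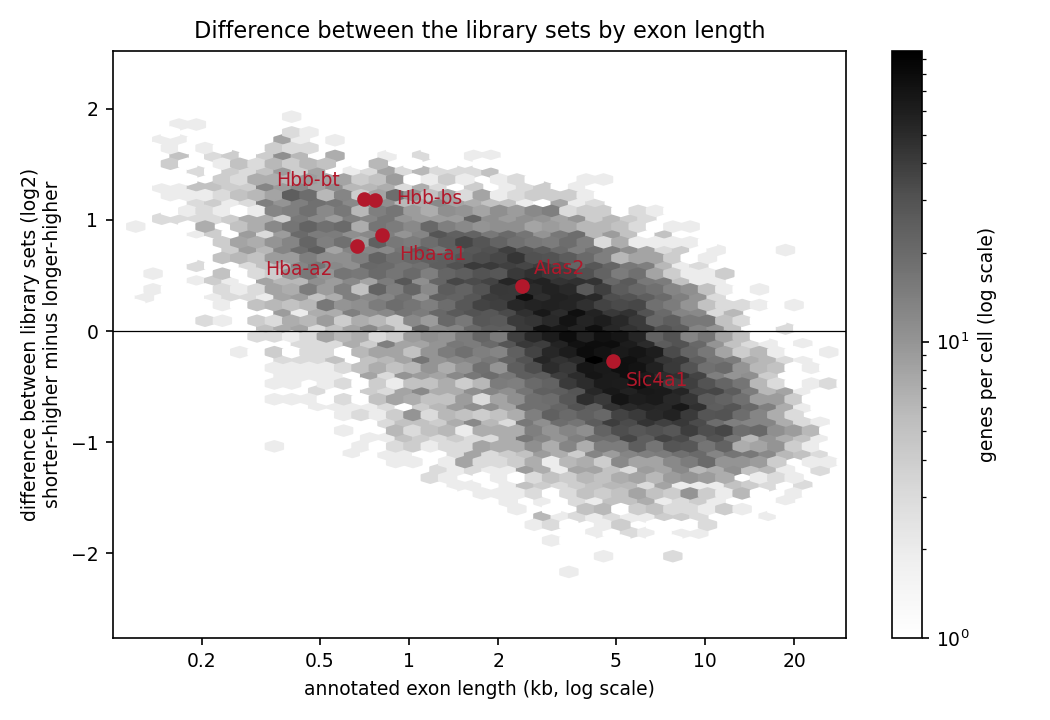
Difference in rlog value between the 4 libraries with shorter transcripts higher and the 6 others (vertical axis, log2) against annotated exon length (horizontal axis, kb, log scale) for the 19012 genes tested, with the density of genes in grey and the 6 red cell genes in red. The cloud slopes down with length, Alas2 (0.40) and Slc4a1 (-0.27) lie inside it, and Hbb-bs (1.18) and Hbb-bt (1.19) lie near the top of the genes under 1 kb.

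The 4 globins rose and fell together from library to library. Because the sets lie apart, correlations were read within the 6 libraries with longer transcripts higher (15 pairs, two-sided exact permutation over 720 arrangements, adjusted over the pairs). Hba-a1 and Hbb-bs, an alpha and a beta gene that share no 50-base window, had r = 0.985 (exact permutation p = 0.00278, adjusted 0.00694) and rho = 0.943 (exact p = 0.0167, adjusted 0.0417). Without the 2 libraries farthest from the median of Hba-a1, r was 0.960. This pair is not open to reads shared between copies, unlike Hbb-bs with Hbb-bt (r = 0.999) and Hba-a1 with Hba-a2 (r = 0.999).

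Alas2 and Slc4a1 moved with the globins in these 6 libraries by r but not by rank. Hbb-bs with Alas2 had r = 0.897 (exact permutation p = 0.0389, adjusted 0.0432) and rho = 0.829 (exact p = 0.0583, adjusted 0.0795). Hbb-bs with Slc4a1 had r = 0.889 (exact permutation p = 0.0389, adjusted 0.0432) with the same rho, and without the 2 farthest libraries both values of r were 0.997 or more. Over the 15 pairs, 15 passed an adjusted p of 0.05 by r, and the 6 pairs among globins passed it by rho. The members and this set of 6 were chosen with results of these data known, so the p-values do not set the members apart from other genes. In the 6 libraries Pla2g16 (r = 0.992) and Ppp1r1a (r = 0.990), which are not members, followed Hbb-bs as closely as Hba-a1 did. The share of all genes with such r in the 6 libraries was not computed. The values of r without the farthest libraries rest on 4 libraries and are descriptions, and neither the 4 libraries of the other set nor the 4 left without P2 and P5 were tested. In the other set P3 and P4 had the highest Hbb-bs of all (15.27 and 15.38) and the lowest Slc4a1 of all (3.51 and 3.55), while Slc4a1 was at 4.31 in C4 and 4.65 in C5.

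**Figure D3:**
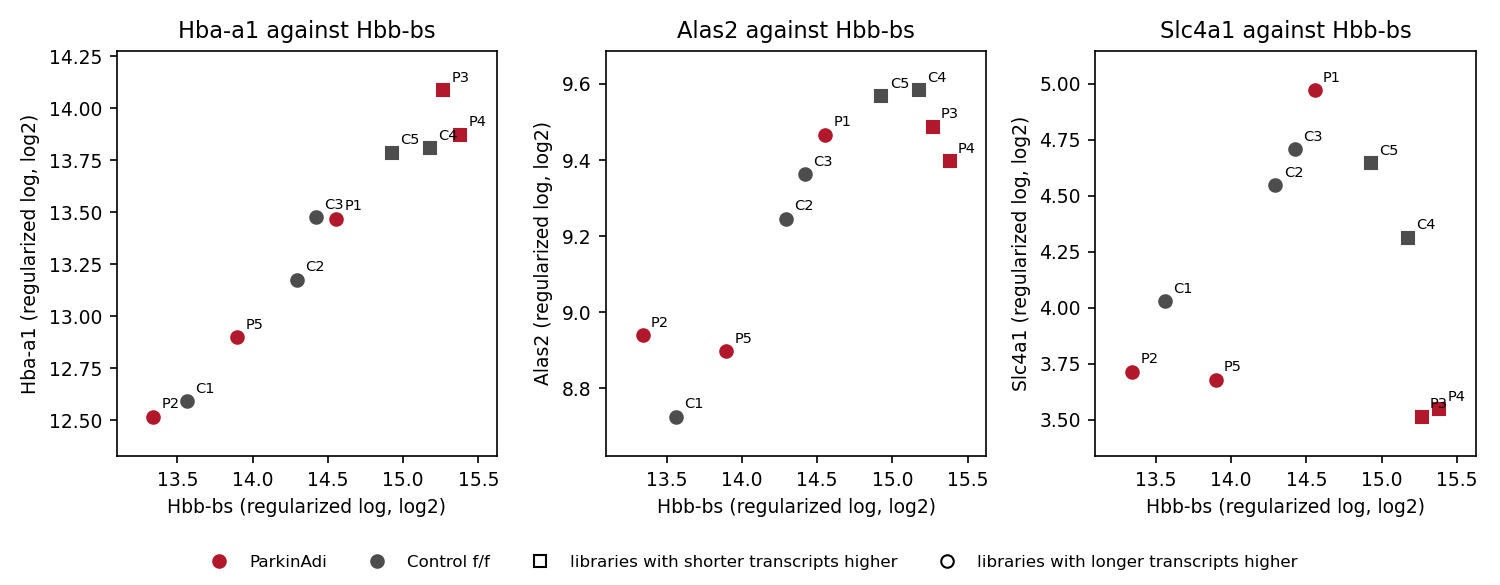
Hba-a1, Alas2 and Slc4a1 (vertical axes) against Hbb-bs (horizontal axis), all in rlog units (log2), with 1 point per library, ParkinAdi in red, Control f/f in grey, and squares for the libraries with shorter transcripts higher. Hba-a1 follows Hbb-bs over all points. Slc4a1 follows it over the circles, but the squares, highest for Hbb-bs, all lie below circle P1 (4.97) for Slc4a1. They are at 3.51 (P3), 3.55 (P4), 4.31 (C4) and 4.65 (C5).

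The proportions within each pair of copies varied less than the levels. Per kb of exon, Hba-a2 exceeded Hba-a1 by 1.28 to 1.36 on the log2 scale in 9 libraries and by 1.03 in P3. Hbb-bt exceeded Hbb-bs by 0.23 to 0.31 in all 10. The sum of the beta genes exceeded that of the alpha genes by 0.23 (P2) to 0.95 (P4), with a mean of 0.78 in the libraries with shorter transcripts higher and 0.40 in the others, so the balance of chains moved with the set. The excess of beta over alpha averaged 0.59 ± 0.29 in ParkinAdi and 0.52 ± 0.19 in Control f/f (SD, n = 5 each), a difference within the spread. Hbb-bs exceeded Alas2 per kb by 6.05 (P2) to 7.63 (P4), again the lowest and highest libraries of Hbb-bs itself, a wider span than that of the Alas2 level.

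Over the libraries, Hbb-bs ranged over 2.04 and Hbb-bt over 2.06 on the log2 scale, wider than 89.1% and 89.4% of the genes tested. Hba-a1 ranged over 1.57, Slc4a1 over 1.46, Hba-a2 over 1.33 and Alas2 over 0.86, against a median of 1.08 for all genes. The genes that followed Hbb-bs most closely over the 10 libraries, other than the members, were Pla2g16, a phospholipase of adipocytes (r = 0.994), Ppp1r1a, an inhibitor of protein phosphatase 1 (0.993), the tricarboxylic acid cycle enzyme Fh1 (0.992), the small GTPase Rhoa (0.991), Mnd1-ps (0.990), Jkamp and Ttc1 (both 0.989), the glutathione transferase Mgst1, 1600014C10Rik, and the beta-oxidation enzyme Hadh (each 0.988). These are descriptions over 10 libraries that share the sets, and 2418 genes (12.7%) had r above 0.9. Counting Hbb-bs itself, the number of genes with a higher r was 42 for Hba-a1 (0.982) and 58 for Hba-a2 (0.980). It was 2905 for Alas2 (0.882) and 8851 for Slc4a1 (0.04).

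Other red cell genes did not pass the test between genotypes, where 0 of all 19012 genes passed. The counts of 0 passed for this and the following lists therefore do not set any list apart. Of 16 further genes of the red cell membrane and skeleton, 8 were tested and 0 passed in either direction (median difference 0.02, against 0.03 over all genes). Between library sets these 8 differed by a median of -0.82, opposite in sign to the globins, with 2 above 0. Without overlap 4 of the 8 were lower, against 22.7% of the genes tested, and 0 were higher, against 23.7%. Their exons span 2331 to 15942 bases, longer than those of the globins. The membrane protein glycophorin C, Gypc, had a mean of 9.89, but spectrins, ankyrins and protein 4.1 are also made outside the red cell lineage. Ank1 was at 11.44 in P2 and at 4.45 to 5.69 in the other 9. Of 17 genes of the erythroid cytosol and transcription factors, 9 were tested and 0 passed (median difference 0.02). The difference between library sets was above 0 for 5 of the 9, with a median of 0.28. Car1, a carbonic anhydrase of red cells named after its values were seen, ranged from 5.38 in P2 to 6.99 in P4. Tfrc, highest in P2 (9.85), and Slc25a37, lowest in P3 (8.60), went the other way. Named after their values were seen, the transcription factors Gata1 (mean 1.34) and Klf1 (2.41), defining genes of red cell precursors, were under the filter. Other genes of this list went the other way: Tal1 (mean 6.50), Nfe2 (3.52) and Epor (6.81) passed the filter. Embryonic and theta globin genes (8 in the list) were not analysed here.

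The 8 other enzymes of heme synthesis, which every nucleated cell uses, were all tested and 0 passed (median difference 0.02). Alas1, the housekeeping counterpart of Alas2, had a mean of 12.32 and had a difference of -0.17, and Alad, the next enzyme of the pathway, of 0.39 (unadjusted p = 0.233 and 0.0914). Their median difference between library sets was 0.40, the same as that of Alas2.

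Platelets and leukocytes enter a tissue with the same blood. Of 13 platelet genes 7 were tested and 0 passed (median difference 0.23). The difference between library sets was above 0 for 4 of the 7, with a median of 0.10. Itga2b (7.72 in P2 and 6.06 in P3) and Alox12 (7.24 and 6.33) were higher in P2 than in P3, unlike the globins. Pf4, a chemokine of platelet granules that tissue macrophages also make, ranged from 9.01 in P2 to 10.88 in P3. Ppbp, another granule chemokine, ranged from 4.49 in P2 to 6.03 in P3. Within the 6 libraries with longer transcripts higher, Ppbp had r = 0.879 and Pf4 r = 0.836 with Hbb-bs (exact permutation p = 0.0361 and 0.0444, adjusted 0.178 for both over 12 genes), and rho was 0.886 for each (exact p = 0.0333, adjusted 0.133). Neither passed after adjustment, nor did the other 10 relations of that family.

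Leukocyte markers did not share 1 pattern. Of 16 genes 10 were tested, 0 passed after adjustment and 2 (20%, against 3.56% of all genes) were lower in ParkinAdi at an unadjusted p under 0.05. S100a8, a subunit of neutrophil calprotectin, differed by -1.28 (adjusted p = 0.77) and Csf3r, the receptor of the granulocyte growth factor, by -0.77 (adjusted p = 0.70). S100a8 was at 8.02, 7.62, 8.81, 8.67 and 7.71 in ParkinAdi and 9.46, 10.25, 7.97, 8.93 and 10.62 in Control f/f, and C1, which had the lowest Hbb-bs of the controls, was among the higher ones. Between library sets the difference was above 0 for 8 of the 10 tested genes. Their median was 0.59, against -0.05 over all genes and 0.70 over genes with exons under 1 kb. Named after their values were seen, S100a9, the partner of S100a8, differed by 1.46 and Retnlg by 1.13. Both have short exons (522 and 593 bases), and the upper quartile of genes under 1 kb was 1.07. With Hbb-bs the r of S100a8 was 0.10 (exact permutation p = 0.835) in the 6 libraries, and with the B cell gene Cd79a r was 0.37 (exact p = 0.488).

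Hemoglobin that leaves red cells is bound by haptoglobin (Hp), free heme by hemopexin (Hpx), and macrophages take up the complexes and break heme down with heme oxygenase (Hmox1). Of 15 genes of this clearance route all were tested, 0 passed after adjustment, and 4 (26.7%, against 3.56% of all genes) were lower and 0 (against 1.46%) higher at an unadjusted p under 0.05 (median difference -0.18). Hmox1 was at 9.91, 9.61, 10.01, 9.91 and 9.83 in ParkinAdi libraries, against 10.69, 10.74, 10.25, 10.39 and 10.80 in Control f/f libraries. All 5 ParkinAdi values lay below all controls, where 1.06% of genes did not overlap, with a difference of -0.72 (SE 0.14, limma adjusted p = 0.62). Hpx differed by -1.91 (SE 0.50, adjusted p = 0.62), Hp by -1.01 (SE 0.34, adjusted p = 0.70) and Slc48a1, a heme transporter, by -0.41 (SE 0.16, adjusted p = 0.87). Without control C3, which had the lowest Hpx of the controls, Hpx differed by -2.39 (limma adjusted p = 0.0324, range over all alternatives 0.0324 to 1). None of the relations of Hbb-bs with this group passed in the 6 libraries: with Hbb-bs, Hp had r = 0.22 (exact permutation p = 0.653), Hmox1 r = 0.20 (exact p = 0.665) and Cd163, the macrophage receptor for the hemoglobin and haptoglobin complex, r = 0.55 (exact p = 0.249).

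**Figure D4:**
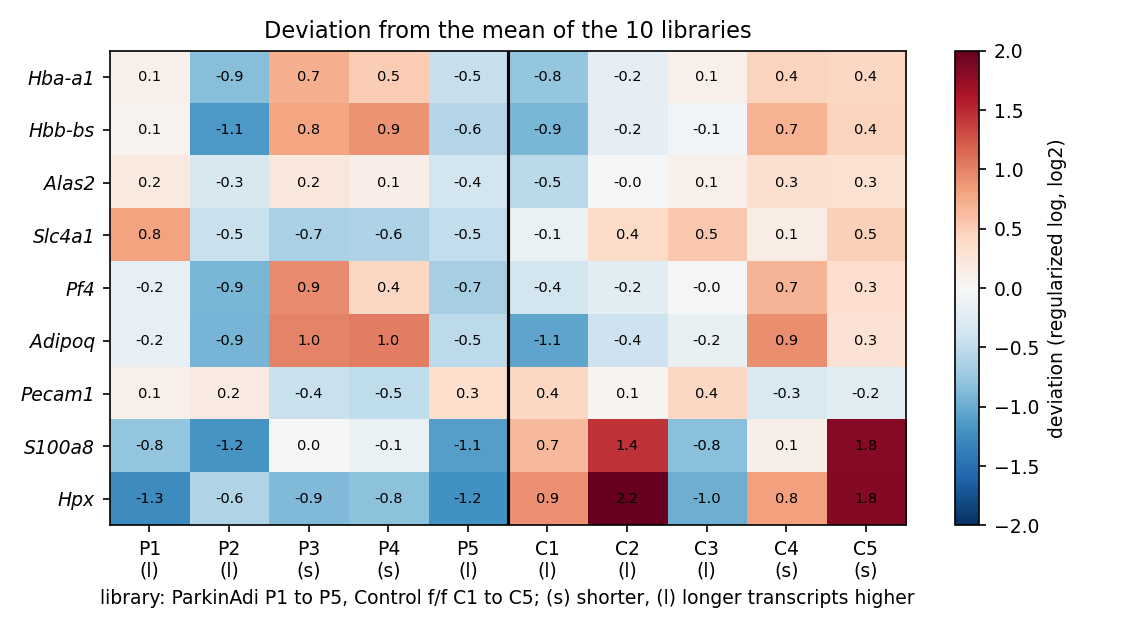
Deviation of each gene from its own mean over the 10 libraries (rlog, log2, colour and printed value), with ParkinAdi libraries left of the line and Control f/f libraries right of it, and (s) or (l) for the libraries with shorter or longer transcripts higher. Hba-a1, Hbb-bs, Pf4 and Adipoq are low in P2, P5 and C1 and high in P3, P4 and C4, whereas S100a8 and Hpx are highest in C2 and C5.

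Vessel wall and fat cell genes were read beside the globins as well. Endothelial genes (10 of 10 tested, 0 passed, median difference between genotypes -0.10) differed between library sets by a median of -0.68, opposite in sign to the globins. Their exons span 1987 to 16064 bases, longer than those of the globins. The sets were defined by length, so vessel wall and length cannot be told apart in this value. Pecam1, an adhesion protein of endothelium, had r = -0.26 with Hbb-bs in the 6 libraries (exact permutation p = 0.596). Adipocyte genes (9 of 9 tested, 0 passed, median difference -0.02) differed between sets by a median of 0.79. Adipoq had the highest r with Hbb-bs of the 12 genes (0.951, exact permutation p = 0.00556, adjusted 0.0667) and Lep, the hormone leptin, was lower in ParkinAdi at -0.86 (adjusted p = 0.64). In the 6 libraries Hbb-bs had r = -0.65 with Ces5a (exact p = 0.0986), and without the 2 libraries farthest from the median of Hbb-bs, r was 0.29. Epididymal genes (5 of 11 tested) and muscle genes (3 of 6) gave 0 calls. The part of the library set, of epididymal RNA and of cell mixture in the globin levels was not tested.

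In the experiment with AAV8-Nqo1, the deposited table gave the authors' mean normalized count over pads of both vectors. Whether every pad entered it is not stated. No value per pad was used, so no comparison between vectors was made. The mean was 58517 for Hba-a1, 14269 for Hba-a2, 66769 for Hbb-bs, 24711 for Hbb-bt, 1370 for Alas2 and 17.6 for Slc4a1. In the Parkin experiment the same column gave 12196, 23809, 28965, 32069, 645 and 20.9. The tables were normalized separately, so only proportions within a table are compared, and these have no replicate error.

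The order of the copies was turned round between the experiments. Per kb, the Hba-a1 count was 3.37 times that of Hba-a2 in the Nqo1 experiment and 0.421 times in the Parkin experiment, and that of Hbb-bs was 2.47 and 0.827 times that of Hbb-bt. Of the globin signal per kb in the Nqo1 experiment, Hba-a1 took 33.4%, Hba-a2 9.93%, Hbb-bs 40.3% and Hbb-bt 16.3%, and in the Parkin experiment 11.2%, 26.6%, 28.1% and 34.0%. The balance of chains moved less: the beta to alpha ratio was 1.31 in the Nqo1 experiment and 1.64 in the Parkin experiment. The globin sum per kb was 378 times that of Alas2 in the Nqo1 experiment and 500 times in the Parkin experiment. Mice, libraries and the counting of shared reads cannot be told apart in these proportions.

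**Figure D5:**
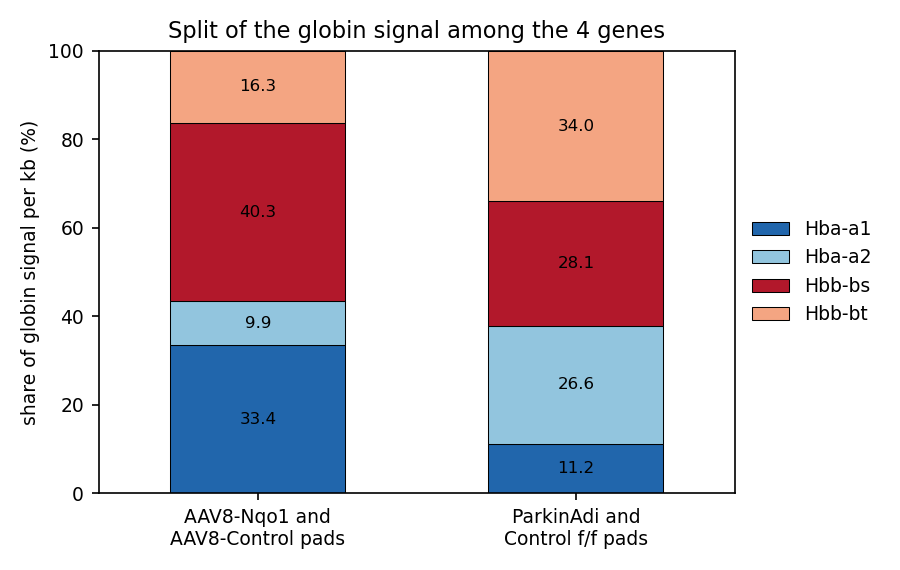
Share of the summed globin signal per kb of exon (vertical axis, %, from the authors' mean normalized counts) taken by each of the 4 globin genes in the pads with AAV8-Nqo1 or AAV8-Control and in the pads of ParkinAdi or Control f/f mice, 1 bar per experiment with no error. Hba-a1 and Hbb-bs take the larger share of their pair on the left (33.4% and 40.3%), and Hba-a2 and Hbb-bt on the right (26.6% and 34.0%).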

How the data were processed

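RNA from frozen eWAT was sequenced after mRNA library preparation. Read quality was checked by the authors with FastQC, alignment and counting used Rsubread on GRCm38, and they analysed raw counts with DESeq2 1.30.0. For the Parkin experiment the authors deposited rlog values (log2 scale) of each library, and for both experiments a table whose mean normalized count is a signal averaged over libraries. The paper's figure legends give fewer mice per group than the deposited libraries, and which libraries entered this mean is not stated. The fold changes, standard errors, statistics, p-values and adjusted p-values beside it are the authors' own comparison and were not used. Raw counts were not used and the depth per library is unknown.

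Genes averaging log2 of 10 or more were fitted with limma 3.58.1 in R 4.3.3 (eBayes with trend, no covariate), with Benjamini-Hochberg adjustment, after a test on simulated data. Exon lengths came from GENCODE M21. Correlations used Python 3.11.15. They had been designed over all 10 libraries, but are given mainly within the 6 of 1 set since the libraries form 2 sets. Members and lists were chosen with earlier results of these data known. Of each list the genes with the smallest p (up to 4) or the highest mean (2), the 10 genes closest to Hbb-bs and the 12 related genes could be named. Alternatives were other scalings, filters, covariates and leaving out each library. Column numbers match no number of the labels. Some items are not reported here.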

Additional observations from a re-analysis of the deposited data

Results flagged for a closer look

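Of 20 groups of 5 libraries (the 6 genes and 4 ratios among them in each genotype), 2 had a library far from the rest, where chance alone sets apart about 1 in 20. Slc4a1 was at 4.97 in ParkinAdi library P1, and the other 4 ParkinAdi libraries lay between 3.51 and 3.72. The log2 excess of Hba-a2 over Hba-a1 per kb was 1.03 in ParkinAdi library P3, against 1.28 to 1.31 in the other 4 ParkinAdi libraries.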

How the results depend on the processing

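The 6 members' differences were recomputed under library centring, quantile normalization, removal of the length trend, a term for the library set and each left-out library. They were also recomputed, chosen after seeing the data, within each set and without P2 and P5. All 102 values lay within 1 pooled SD of the genotypes of the value over all libraries. Leaving out a single library cannot move a difference that far, so for those values this outcome was fixed in advance. Without P2 and P5, Hbb-bs differed by 0.59, against 0.01 over all libraries. The sign turned for every member but Slc4a1 under some of these alternatives. Leaving out each library in turn gave -0.19 to 0.21 for Hba-a1, -0.26 to 0.12 for Hba-a2, -0.22 to 0.30 for Hbb-bs, -0.20 to 0.32 for Hbb-bt, -0.20 to 0.02 for Alas2 and -0.84 to -0.47 for Slc4a1. Genes called lower in ParkinAdi numbered 0 to 11 over the left-out libraries (11 without C3) and genes called higher 0. Pairs of members past the threshold by r numbered 10 of 15 over all 10 libraries, where the 5 pairs with Slc4a1 did not pass. Of 12 relations of Hbb-bs with genes of other cells, 5 passed over all 10 libraries, 2 with the length trend removed, 1 with the set mean removed and 0 within the 6 libraries, settings chosen after seeing the data. Adipoq was the 1 with the set mean removed, and it also passed over all 10 libraries and with the length trend removed. The cause was not tested.

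No paired analysis was possible because the deposited columns carry numbers that match no replicate number of the labels, and the Nqo1 table gave no value per pad. The rlog scale keeps no depth, so no counting interval can be given, and it draws in differences of low genes such as Slc4a1.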
